A study of Mus musculus with 11 samples.

Results

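The respiratory chain of the inner mitochondrial membrane was examined through the nuclear genes of its subunits, in mouse gastric cancers and in normal gastric epithelium measured on Affymetrix arrays. The subunits were taken by symbol (Nduf, Sdh, Uqcr, Cox and Atp5 names), which gave 79 of the 19938 genes with a single symbol: 35 of complex I, 4 of complex II, 8 of complex III, 15 of complex IV and 17 of complex V. All 79 were tested, since no gene was left out for a low signal. The first tumour group, pChePS_GC, held gastric cancer tissue of 4 samples from mice that carried Pdx-1-Cre with 1 floxed allele of Cdh1 (Cdh1F/+) and with both alleles floxed of Trp53 (Trp53F/F) and of Smad4 (Smad4F/F). The second, pCP_GC, held such tissue of 3 samples from mice with Pdx-1-Cre and both alleles floxed of Cdh1 (Cdh1F/F) and of Trp53 (Trp53F/F), and both groups were labelled as diffuse-type in histology. NGE consisted of 4 samples of normal gastric epithelium, taken from mice labelled negative for Pdx1-1-Cre. No mouse was treated, per the labels, which do not give age, sex, the region of the stomach or whether the NGE mice carried floxed alleles. Pdx-1 is active in the developing pancreas, duodenum and distal stomach, so Cre driven by it acts in cells that arise there. Whether each sample of a group is a different mouse is not stated, so the p-values cover the spread among these samples only.

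Complex I (NADH dehydrogenase) and complex II (succinate dehydrogenase) pass electrons to coenzyme Q, complex III (cytochrome bc1) passes them to cytochrome c, and complex IV (cytochrome c oxidase) passes them to oxygen. Complexes I, III and IV pump protons, and complex V, the ATP synthase, lets them flow back through its c ring to drive ATP synthesis. All but complex II combine nuclear subunits with subunits encoded by mitochondrial DNA. In the stomach, the acid-secreting parietal cell is packed with mitochondria that feed its proton pump.

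In both tumour groups most subunit genes were lower than in normal epithelium, and no subunit gene passed in the other direction. In pChePS_GC 61 of 79 were lower than in NGE at a limma adjusted p under 0.05, where 23.4% of all genes were lower, and 0 were higher, where 18.7% of all genes were higher (42.1% in either direction). In pCP_GC 61 of 79 were lower, where 31.8% of all genes were lower, and 0 were higher, where 20% of all genes were higher (51.8% in either direction). At an unadjusted p under 0.05, 66 subunits in pChePS_GC and 65 in pCP_GC differed from NGE, where 52.6% and 58.6% of all genes did. Values are on the log2 scale of the deposited signal, where 1 unit is a 2-fold difference. The median change over the 79 subunits was -0.56 in pChePS_GC, against -0.10 over all genes, which for the subunits is 1.47-fold lower. In pCP_GC it was -0.59, against -0.12 over all genes, which is 1.5-fold lower. The 2 comparisons share the NGE arrays, so their likeness is not independent evidence. The falls were mostly small: 7 subunits in each tumour group fell by at least 2-fold, where 3.34% of all genes did in pChePS_GC and 2.83% in pCP_GC. Centring each array on its median raised the share of all genes that were lower to 45.6% in pChePS_GC and 48.7% in pCP_GC, with 13.5% higher in each, and the subunits lower to 70 and 72. That scaling moved the median of all genes to -0.27 and -0.33. Relative to the median of all genes, which such centring leaves as it is, the median subunit change was -0.46 in pChePS_GC and -0.47 in pCP_GC. It was -0.59 and -0.60 after quantile normalization, -0.66 and -0.73 without the dimmest 50% of genes, and -0.40 and -0.41 with array weights.

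**Figure D1:**
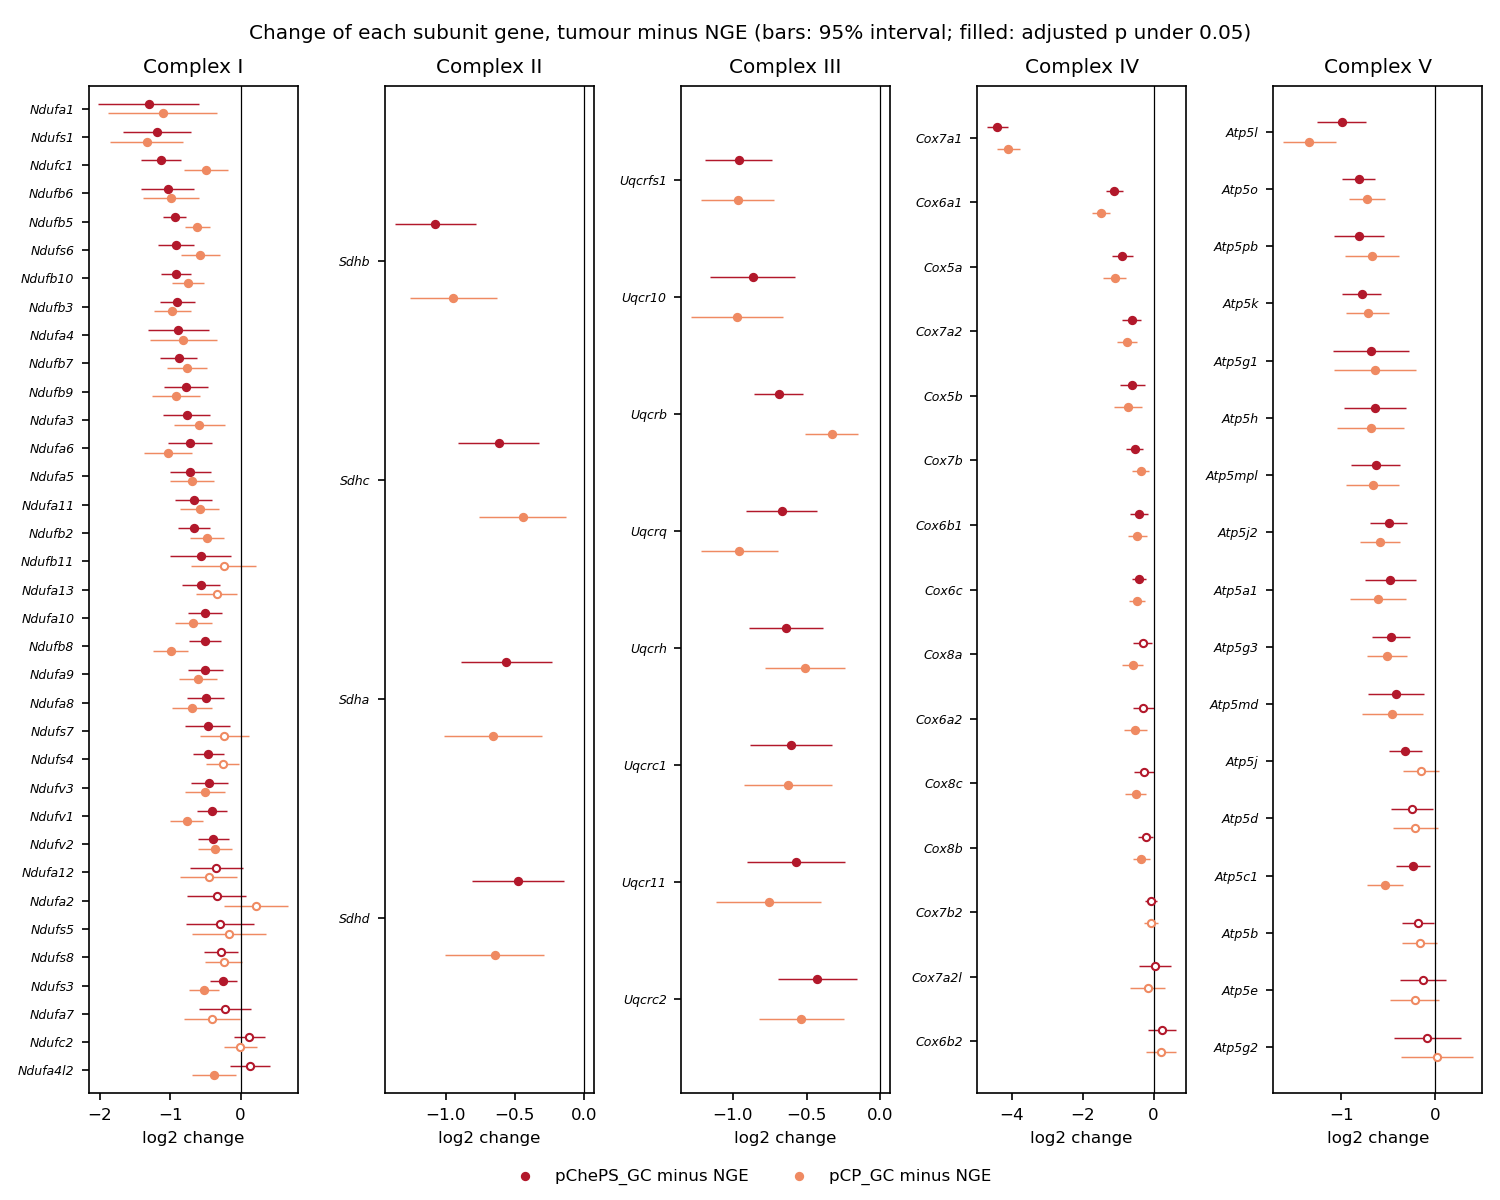
Log2 change of each of the 79 subunit genes in pChePS_GC (dark red) and pCP_GC (orange) relative to NGE, by complex, with 95% intervals; filled points passed at an adjusted p under 0.05, and each panel has its own x axis. Most points lie left of 0, and Cox7a1 lies at -4.40 and -4.09.

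By complex, the counts of lower genes were 28 of 35 in pChePS_GC and 25 of 35 in pCP_GC for complex I, and all 4 genes of complex II and all 8 of complex III in both tumour groups. For complex IV they were 8 and 12 of 15, and for complex V 13 and 12 of 17. Of all genes 23.4% were lower in pChePS_GC and 31.8% in pCP_GC. The median change in pChePS_GC was -0.56 for complex I, -0.59 for complex II, -0.66 for complex III, -0.41 for complex IV and -0.48 for complex V. In pCP_GC the medians in the same order were -0.58, -0.65, -0.69, -0.50 and -0.59. Differences between complexes were not tested. Of the 79 subunits, 67 to 72 in each pChePS_GC array and 70 to 74 in each pCP_GC array read below the lowest NGE array. The share of all genes that did so in each array was not counted. For 61 subunits no pChePS_GC array reached the lowest NGE array, where 22.9% of all genes did so, and for 66 no pCP_GC array did, where 35.6% of all genes did so. For 0 subunits did every array of a tumour group read above all NGE arrays, where 17.7% of all genes did so in pChePS_GC and 24% in pCP_GC.

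**Figure D2:**
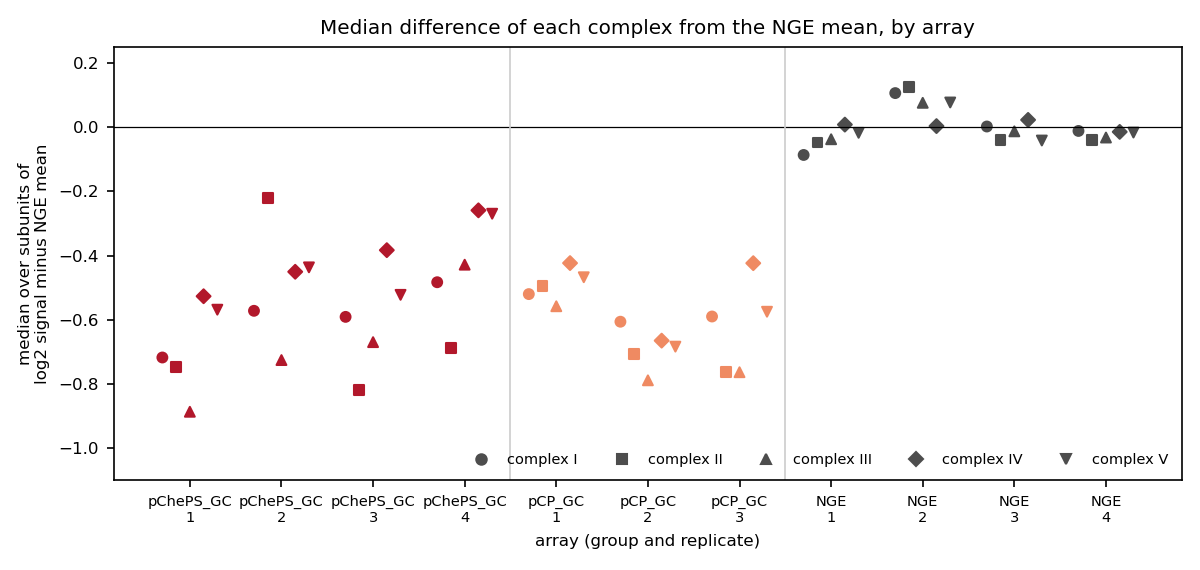
Median over the subunits of each complex of the log2 signal minus the NGE mean, for each of the 11 arrays. In the 7 tumour arrays every complex lies below 0, with the median over all 79 subunits between -0.67 and -0.42, and in the NGE arrays that median lies between -0.05 and 0.09.

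The samples are bulk tissue, in which fewer cells of a type and less RNA per cell cannot be told apart, and cell type markers moved with the subunits. Of 10 parietal cell markers 9 were lower in pChePS_GC and 7 in pCP_GC, and their summed level on the log2 scale was 13.4 to 14.1 in pChePS_GC and 14.3 in each pCP_GC array, against 15.95 to 16.01 in NGE. Of 7 surface mucous markers 6 and 3 were lower, with sums of 13.5 to 15.3 in pChePS_GC and 15.1 to 15.7 in pCP_GC, against 16.55 to 16.57 in NGE. Of 6 chief cell markers 5 and 4 were lower, with sums of 10.6 to 13.4 and 11.5 to 14.2, against 15.1 to 15.5 in NGE. Of 8 pancreatic acinar markers 3 and 4 were lower, with sums of 11.8 to 12.6 and 11.1 to 13.0, against 14.2 to 14.4 in NGE. These markers did not move as a set: in pChePS_GC 4 had positive changes (median 0.09), and in pCP_GC 1 did (median -0.56). In each tumour group 1 of them was called lower by at least 2-fold. In both tumour groups 6 of 7 fibroblast, 7 of 7 macrophage, 6 of 6 endothelial, 6 of 9 muscle and 9 of 9 proliferation markers were higher. The shares of all genes called were 23.4% lower and 18.7% higher in pChePS_GC, and 31.8% and 20% in pCP_GC. The summed macrophage level was 13.7 to 14.4 in pChePS_GC and 13.5 to 14.6 in pCP_GC, against 10.3 to 10.7 in NGE. The fibroblast sum was 13.82 to 15.01 and 14.17 to 15.04, against 11.7 to 12.2 in NGE, the endothelial sum 12.4 to 13.5 and 12.3 to 12.9, against 9.74 to 9.97, and the muscle sum 12.78 to 15.04 and 13.9 to 14.7, against 11.1 to 11.2. Atp4a, the catalytic subunit of the gastric proton pump, is 1 of the 10 parietal markers and was named after its values were seen. It read 7.72, 9.17, 8.99 and 8.62 in pChePS_GC and 7.57, 11.39 and 7.48 in pCP_GC, against 14.10 to 14.17 in NGE. The pCP_GC array with the high Atp4a, replicate 2, did not stand out in the parietal sum, and its fibroblast and macrophage sums, 15.04 and 14.58, were the highest of its group. Its median subunit difference was -0.67, and those of the other pCP_GC arrays were -0.51 and -0.58. Xist, the RNA of X inactivation, read 5.72 to 6.02 in pChePS_GC and 5.57 to 5.81 in pCP_GC, against 11.54 to 12.66 in NGE. Eif2s3y, a Y-linked gene, read 9.21 to 11.09 in pChePS_GC and 8.08 to 10.01 in pCP_GC, against 4.94 to 5.19 in NGE. All tumour arrays thus read as male and all NGE arrays as female, so tumour and sex cannot be told apart in either comparison with NGE. Of the subunits, 3 lie on the X chromosome: Cox7b, Ndufa1 and Ndufb11. The part of cell composition in the falls was not tested.

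In complex I the falls ran through both arms of the enzyme. Of 18 genes assigned here to the membrane arm, which pumps protons, 16 were lower in pChePS_GC and 14 in pCP_GC, with medians of -0.72 and -0.64. Of 15 assigned to the arm that takes up NADH and carries the flavin and iron-sulphur clusters, 11 and 9 were lower, with medians of -0.44 and -0.51. Among the 6 core subunits encoded in the nucleus, which hold those cofactors and are conserved from bacteria, 5 and 4 were lower. The shares of all genes that were lower were 23.4% in pChePS_GC and 31.8% in pCP_GC. This grouping by arm was made after the values were seen. Ndufs1, the largest core subunit and a carrier of iron-sulphur clusters, read 10.43, 10.84, 9.75 and 10.33 in pChePS_GC and 10.48, 10.02 and 10.07 in pCP_GC, against 11.19, 11.81, 11.53 and 11.58 in NGE. All 7 tumour arrays lay below all NGE arrays. It fell by 1.19 in pChePS_GC (SE 0.22, limma adjusted p = 0.00176) and, in pCP_GC, fell by 1.33 (SE 0.23, adjusted p = 0.00125).

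Ndufa1, a small X-linked subunit of the membrane arm, spread widely among the tumours: 8.22, 9.47, 8.58 and 9.85 in pChePS_GC and 9.50, 9.10 and 9.08 in pCP_GC, against 9.86, 10.68, 10.46 and 10.32 in NGE. The highest pChePS_GC array came within 0.01 of the lowest NGE array. Ndufa1 fell by 1.30 in pChePS_GC (SE 0.33, adjusted p = 0.00975) and, in pCP_GC, fell by 1.11 (SE 0.35, adjusted p = 0.0224). The call in pCP_GC was lost without pCP_GC replicate 2 (adjusted p = 0.0672), pCP_GC replicate 3 (0.0655), NGE replicate 2 (0.0558) or NGE replicate 3 (0.0529). Ndufb6 and Ndufa6, accessory subunits, fell by 1.04 and 0.72 in pChePS_GC (adjusted p = 0.000818 and 0.00303) and fell by 0.99 and 1.03 in pCP_GC (adjusted p = 0.00155 and 0.000552). Ndufa4, long counted with complex I and since placed with complex IV, read 11.13, 10.54, 11.27 and 11.20 in pChePS_GC and 11.02, 11.38 and 10.92 in pCP_GC, against 11.49, 12.26, 12.04 and 11.87 in NGE. It fell by 0.88 (adjusted p = 0.00567) and 0.81 (adjusted p = 0.00934). Its paralog Ndufa4l2, known as a gene induced by low oxygen, gave other values. It read 7.92, 7.51, 7.97 and 7.56 in pChePS_GC and 7.09, 7.22 and 7.39 in pCP_GC, against 7.67, 7.52, 7.79 and 7.47 in NGE. The pChePS_GC arrays overlapped those of NGE, and the pCP_GC arrays lay below all of them. Its change was 0.13 in pChePS_GC (adjusted p = 0.424), and it fell by 0.38 in pCP_GC (adjusted p = 0.0412). That call in pCP_GC was lost without pCP_GC replicate 1 (adjusted p = 0.142), pCP_GC replicate 2 (0.0928), NGE replicate 1 (0.0853) or NGE replicate 3 (0.104), and under quantile normalization (0.147). Ndufa4l2 is dim, with means of 7.23 in pCP_GC and 7.61 in NGE. Of 1194 genes for olfactory and vomeronasal receptors, 95% stayed under 6.86 and 7.24 in these groups. Those receptor genes shifted by a median of -0.22 in pCP_GC, and 35.5% of them were called lower.

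Other complex I genes had small or uneven changes. Ndufc2, a small membrane-arm subunit named here after its values were seen, read 12.98, 12.93, 13.16 and 13.10 in pChePS_GC and 12.89, 12.83 and 13.03 in pCP_GC, against 12.88, 13.13, 12.74 and 12.93 in NGE. The groups overlapped, and the 95% interval of its change ran from -0.10 to 0.34 in pChePS_GC and from -0.24 to 0.23 in pCP_GC. Its partner Ndufc1, which sits beside it in the enzyme, fell by 1.13 in pChePS_GC (SE 0.13, adjusted p = 8.47e-05) and, in pCP_GC, fell by 0.49 (SE 0.14, adjusted p = 0.0132). Ndufa2, a subunit of the NADH-side arm, was at the top of the pCP_GC range with a change of 0.22 (adjusted p = 0.388), and its change in pChePS_GC was -0.34 (adjusted p = 0.168). Without pChePS_GC replicate 2 the Ndufa2 change in pChePS_GC passed (adjusted p = 0.0481), and with array weights its change in pCP_GC passed as higher. Several further calls in complex I ended when single arrays were left out: Ndufs3, Ndufs7 and Ndufb11 in pChePS_GC, and Ndufa3 and Ndufv2 in pCP_GC.

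Complex II, whose subunits are all nuclear, was lower in each of its 4 genes. Sdhb, the iron-sulphur subunit, read 10.55, 11.03, 10.92 and 11.22 in pChePS_GC and 11.21, 11.04 and 10.93 in pCP_GC, against 11.94, 12.12, 12.03 and 11.94 in NGE. It fell by 1.08 in pChePS_GC (SE 0.13, adjusted p = 0.000143) and, in pCP_GC, fell by 0.94 (SE 0.14, adjusted p = 0.000564), with no overlap. Sdha, the flavoprotein that oxidises succinate, fell by 0.56 (SE 0.15, adjusted p = 0.0129) and 0.66 (SE 0.16, adjusted p = 0.00629). Sdhc and Sdhd are the membrane anchors, and some of their calls rest on single arrays. Sdhc fell by 0.62 in pChePS_GC (adjusted p = 0.00437) and, in pCP_GC, fell by 0.44 (adjusted p = 0.0237), a call lost without pCP_GC replicate 2 (adjusted p = 0.0941), NGE replicate 1 (0.0542) or NGE replicate 2 (0.0545). Sdhd read 11.18, 11.81, 11.06 and 11.38 in pChePS_GC and 11.38, 11.10 and 11.08 in pCP_GC, against 11.81, 11.96, 11.72 and 11.86 in NGE, so that 1 pChePS_GC array reached the NGE range. Sdhd fell in pChePS_GC by 0.48 (adjusted p = 0.0274) and, in pCP_GC, fell by 0.65 (adjusted p = 0.00744). The pChePS_GC call of Sdhd was lost when pChePS_GC replicate 1 or 3 (adjusted p = 0.065 and 0.0661), or NGE replicate 1, 2 or 4, was left out (0.0549, 0.059 and 0.0623).

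Complex III fell in every measured subunit, by 0.43 to 0.96 in pChePS_GC and by 0.33 to 0.97 in pCP_GC. Uqcrfs1, the Rieske iron-sulphur protein that takes electrons from coenzyme Q, read 9.65, 9.84, 9.61 and 9.80 in pChePS_GC and 9.88, 9.57 and 9.72 in pCP_GC, against 10.56, 10.91, 10.64 and 10.64 in NGE. It fell by 0.96 in pChePS_GC (SE 0.10, adjusted p = 5.85e-05) and, in pCP_GC, fell by 0.97 (SE 0.11, adjusted p = 0.000113). Uqcr10, a small subunit next to the Rieske protein, fell by 0.87 (adjusted p = 0.000556) and 0.97 (adjusted p = 0.000448). Uqcrq, another small subunit, fell by 0.67 (adjusted p = 0.000896) and 0.96 (adjusted p = 0.00017). Uqcrc2, a core protein on the matrix side, had the smallest fall of the complex in pChePS_GC, 0.43 (adjusted p = 0.0182), and fell by 0.54 in pCP_GC (adjusted p = 0.00671). Cyc1, the cytochrome c1 of the same complex, lies outside the symbol patterns. It fell by 0.56 (adjusted p = 0.0206) and 0.53 (adjusted p = 0.0283), and these calls were lost without NGE replicate 1 and, in pCP_GC, also without NGE replicate 2 or 4 or pCP_GC replicate 2 or 3 (highest adjusted p over the alternatives 0.0581 and 0.092).

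Complex IV held the largest fall among the subunits. Cox7a1, the isoform of subunit 7a that is best known from heart and skeletal muscle, read 7.30, 7.75, 7.81 and 7.73 in pChePS_GC and 7.76, 8.05 and 8.07 in pCP_GC, against 11.91, 12.22, 12.14 and 11.91 in NGE. The tumour and NGE arrays were far apart and did not overlap. It was 21.1-fold lower in pChePS_GC (log2 change -4.40, SE 0.13, limma adjusted p = 1.06e-08) and 17.0-fold lower in pCP_GC (log2 change -4.09, SE 0.14, adjusted p = 4.58e-08). Its tumour means of 7.65 and 7.96 were above the level that 95% of 1194 genes for olfactory and vomeronasal receptors stayed under, which was 6.99 in pChePS_GC and 6.86 in pCP_GC. The ubiquitous isoform Cox7a2 read 11.59, 11.88, 11.53 and 11.96 in pChePS_GC and 11.84, 11.47 and 11.51 in pCP_GC, against 12.37, 12.37, 12.29 and 12.41 in NGE. It fell by 0.62 (adjusted p = 0.0023) and 0.75 (adjusted p = 0.00104). Cox7a2l, a relative that helps to join complexes III and IV into supercomplexes, ranged from 10.07 to 11.14 in pChePS_GC and from 10.34 to 10.53 in pCP_GC, against 10.39 to 10.77 in NGE, and did not pass (changes of 0.04 and -0.17). Beside this, markers of striated muscle gave these values: Ckm had changes of -0.15 and -0.36 (adjusted p = 0.447 and 0.0972), Acta1 had changes of 0.16 and 0.25 (0.469 and 0.293), and Myh1 had a change of -0.19 in pChePS_GC (0.081) and of -0.39 in pCP_GC (0.00523, lost under quantile normalization).

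**Figure D3:**
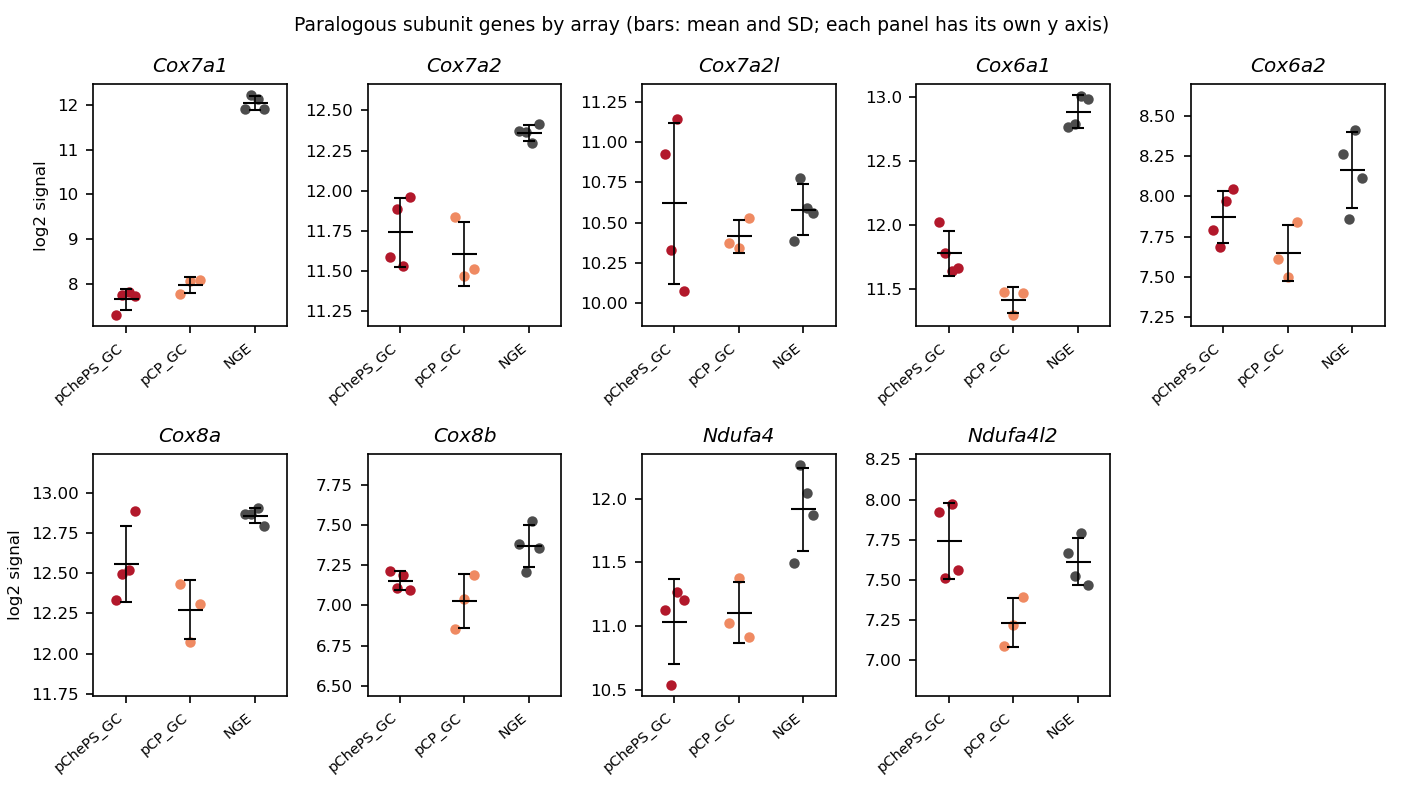
Log2 signal of 9 paralogous subunit genes in each array, with mean and SD per group; each panel has its own y axis. Cox7a1 drops to between 7.30 and 8.07 in the tumour arrays, against 11.91 to 12.22 in NGE, while Cox7a2l overlaps between all groups.

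Smaller falls ran through the ubiquitous subunits of complex IV. Cox6a1 read 12.03, 11.78, 11.64 and 11.66 in pChePS_GC and 11.48, 11.30 and 11.47 in pCP_GC, against 12.76, 12.79, 13.01 and 12.99 in NGE. It fell by 1.11 in pChePS_GC (SE 0.11, adjusted p = 2.7e-05) and, in pCP_GC, fell by 1.47 (SE 0.11, adjusted p = 9.46e-06), without overlap. Cox5a, which binds the catalytic subunit from the matrix side, fell by 0.88 (adjusted p = 0.000534) and 1.10 (adjusted p = 0.000232). Of 8 ubiquitous isoforms 7 were lower in pChePS_GC and 8 in pCP_GC, where 23.4% and 31.8% of all genes were lower. The exception in pChePS_GC, Cox8a, had a change of -0.30 (adjusted p = 0.0675) that passed without pChePS_GC replicate 4 (adjusted p = 0.0112). Cox7b, X-linked, fell by 0.53 in pChePS_GC (adjusted p = 0.00289) and, in pCP_GC, fell by 0.37 (adjusted p = 0.0204), the pCP_GC call lost without pCP_GC replicate 2 (adjusted p = 0.0834). Cox6b1 fell by 0.41 and 0.46 (adjusted p = 0.0167 and 0.0107).

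Besides Cox7a1, the isoforms known from striated muscle or testis were lower in 0 of 5 cases in pChePS_GC and 3 of 5 in pCP_GC. Of all genes 23.4% and 31.8% were lower. Cox6a2, the muscle isoform of subunit 6a, read 7.79, 7.69, 7.97 and 8.04 in pChePS_GC and 7.61, 7.50 and 7.84 in pCP_GC, against 8.26, 7.86, 8.42 and 8.11 in NGE. Its change was -0.29 in pChePS_GC (adjusted p = 0.1), which passed without NGE replicate 2 (0.0309), and it fell by 0.51 in pCP_GC (adjusted p = 0.013), which was lost without pCP_GC replicate 2 (0.054). Cox8b, the muscle isoform of subunit 8, had a change of -0.22 in pChePS_GC (adjusted p = 0.0879) and fell by 0.34 in pCP_GC (adjusted p = 0.0181), lost without pCP_GC replicate 1 (0.0841) and under quantile normalization. Cox8c, known from testis, had a change of -0.26 in pChePS_GC (adjusted p = 0.11) and fell by 0.50 in pCP_GC (adjusted p = 0.0104). Without NGE replicate 2 the pChePS_GC changes of Cox8b and Cox8c passed (0.0455 and 0.0446). The receptor genes, which serve as a gauge of dim probe sets, shifted by a median of -0.15 in pChePS_GC and -0.22 in pCP_GC, and 17.8% and 35.5% of them were called lower. Cox6b2, an isoform of testis, read 7.72, 7.74, 8.13 and 7.72 in pChePS_GC and 7.40, 8.28 and 7.73 in pCP_GC, against 7.72, 7.34, 7.70 and 7.58 in NGE, with overlap. Neither it nor Cox7b2 passed, and Cox7b2 was the only subunit below the level that 95% of the receptor genes stayed under, in all 3 groups. Outside the symbol patterns, Cox4i1, the main isoform of subunit 4, fell by 0.76 (adjusted p = 0.000914) and 1.04 (adjusted p = 0.000237). Its lung isoform Cox4i2 had a change of -0.01 in pChePS_GC (adjusted p = 0.95) and fell by 0.28 in pCP_GC (adjusted p = 0.0311), a call that left-out arrays ended (highest adjusted p over the alternatives 0.129).

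In complex V the counts of lower genes differed between the parts of the enzyme. The small subunits that line the membrane sector and hold the enzyme in dimers were lower in 5 of 5 cases in both tumour groups, with medians of -0.63 in pChePS_GC and -0.67 in pCP_GC. Among them, the pChePS_GC call of Atp5md was lost without any single NGE array or without pChePS_GC replicate 1, 2 or 3 (highest adjusted p 0.0845). Its pCP_GC call was lost without pCP_GC replicate 2 and with the block by replicate number. Of the peripheral stalk, 4 of 4 were lower in pChePS_GC and 3 of 4 in pCP_GC. Of the catalytic F1 head with the central stalk, 2 of 5 (40%) were lower in each, with medians of -0.23 and -0.22. Of all genes 23.4% were lower in pChePS_GC and 31.8% in pCP_GC. The count for the head and central stalk depended on the scaling. Centring each array on its median added calls of Atp5b and Atp5d in pChePS_GC, and of Atp5b, Atp5d and Atp5e in pCP_GC. The parts were assigned after the values were seen, and differences between them were not tested. Atp5l, subunit g of the membrane sector, read 11.03, 10.85, 10.77 and 10.91 in pChePS_GC and 10.67, 10.44 and 10.53 in pCP_GC, against 11.56, 12.09, 12.01 and 11.89 in NGE. It fell by 1.00 in pChePS_GC (SE 0.12, adjusted p = 0.000113) and, in pCP_GC, fell by 1.34 (SE 0.13, adjusted p = 3.18e-05), and the changes at its 6 probe sets lay between -1.03 and -0.99 in pChePS_GC and between -1.38 and -1.34 in pCP_GC. Atp5o, which joins the stalk to the head, fell by 0.82 (adjusted p = 3.06e-05) and 0.73 (adjusted p = 0.00013). Atp5pb of the peripheral stalk fell by 0.81 (adjusted p = 0.000511) and 0.67 (adjusted p = 0.0021), and Atp5k, subunit e, fell by 0.78 (adjusted p = 0.000136) and 0.72 (adjusted p = 0.000409).

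The head subunits, all 5 of which are given here after their values were seen, include the catalytic core. Atp5b, the catalytic beta subunit, read 13.44, 13.60, 13.64 and 13.74 in pChePS_GC and 13.68, 13.58 and 13.62 in pCP_GC, against 13.81, 13.80, 13.75 and 13.78 in NGE. All tumour arrays lay below the NGE arrays, yet the changes of -0.18 and -0.16 did not pass (adjusted p = 0.0817 and 0.135). The first passed without pChePS_GC replicate 4 (0.0464), and both passed with each array centred on its median (0.00573 in pChePS_GC). Its partner Atp5a1, the alpha subunit, fell by 0.48 (adjusted p = 0.0122) and 0.61 (adjusted p = 0.00407). Atp5c1, the rotor shaft, fell by 0.23 in pChePS_GC (adjusted p = 0.0392) and, in pCP_GC, fell by 0.53 (adjusted p = 0.000881). The pChePS_GC call ended with 7 of the 8 pChePS_GC and NGE arrays left out in turn (highest adjusted p 0.0877). Atp5d had changes of -0.24 and -0.21 (adjusted p = 0.0759 and 0.13), and Atp5e had changes of -0.13 and -0.22 (0.365 and 0.152). Atp5d passed in pChePS_GC with centring (0.00708), quantile normalization (0.0386), array weights (0.0302) or without pChePS_GC replicate 4 (0.0235). In pCP_GC Atp5d passed with centring, and Atp5e with centring or quantile normalization. The 3 genes of the c ring, which encode the same mature protein behind different import sequences, had unlike values. Atp5g3 fell by 0.47 (adjusted p = 0.00259) and 0.51 (adjusted p = 0.00191). Atp5g1 fell by 0.68 (adjusted p = 0.0144) and 0.64 (adjusted p = 0.0209), the pCP_GC call lost without pCP_GC replicate 2 (0.0707) or NGE replicate 1 (0.0527). Atp5g2 read 11.79, 12.01, 12.53 and 12.56 in pChePS_GC and 12.37, 12.30 and 12.29 in pCP_GC, against 12.43, 12.31, 12.25 and 12.21 in NGE, with changes of -0.08 and 0.02 that did not pass (adjusted p = 0.708 and 0.924). Of the 79 subunits 16 had more than 1 probe set, some of which may read processed copies elsewhere in the genome.

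Promoter sequence is shown for 3 genes that span the range of changes: Cox7a1 with the largest fall, Cox6a1 with the next largest in complex IV in both tumour groups, and Atp5g2 with a change near 0. They were chosen after their values were seen. Each is the 250 bases before the annotated start (RefSeq, GRCm38.p6), read 5′ to 3′ on the gene's strand, in capitals where a searched motif matched. Cox7a1 lies at chr7:30183921-30184170 on the plus strand, Cox6a1 at chr5:115348959-115349208 on the minus strand and Atp5g2 at chr15:102671048-102671297 on the minus strand.
Cox7a1: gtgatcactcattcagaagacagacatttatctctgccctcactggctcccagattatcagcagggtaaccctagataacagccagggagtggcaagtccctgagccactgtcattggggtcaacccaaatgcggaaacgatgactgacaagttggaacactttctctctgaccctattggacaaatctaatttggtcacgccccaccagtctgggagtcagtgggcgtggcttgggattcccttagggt
Cox6a1: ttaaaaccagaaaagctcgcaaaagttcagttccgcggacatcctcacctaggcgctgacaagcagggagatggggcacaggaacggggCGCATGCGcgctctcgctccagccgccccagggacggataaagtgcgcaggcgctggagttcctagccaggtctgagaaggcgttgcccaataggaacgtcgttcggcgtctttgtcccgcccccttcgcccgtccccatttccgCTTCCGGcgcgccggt
Atp5g2: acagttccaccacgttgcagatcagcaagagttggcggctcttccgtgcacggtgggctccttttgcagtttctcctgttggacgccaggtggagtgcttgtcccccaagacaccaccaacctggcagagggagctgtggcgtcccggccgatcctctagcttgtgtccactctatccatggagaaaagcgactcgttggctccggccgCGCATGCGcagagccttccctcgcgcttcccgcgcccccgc

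Sites of 4 factors known from respiratory chain promoters were searched as exact letters on both strands, in windows from 250 bases before to 50 bases after the start. The letters were CGCATGCG for NRF1, CCGGAAG for the ETS factor GABP, AAGGTCA for the estrogen-related receptors and AAGATGGC for YY1. CCGGAAG ends in the letters with which AAGGTCA and AAGATGGC begin, so such matches can overlap. Of the 79 subunits 66 had a window. The NRF1 letters were in 9 of them (13.6%), against 3% of 15614 measured genes with a window and 1.87% of all 32851 promoters in the table. The GABP letters were in 17 (25.8%), against 13.6% and 8.86%. The YY1 letters were in 10 (15.2%), against 3.77% and 2.75%, and 7 of these belong to complex I. The estrogen-related receptor letters were in 7 (10.6%), against 4.48% and 4.72%, and 4 of these belong to complex V. Atp5l, with the largest fall of complex V, held the NRF1, GABP and estrogen-related receptor letters, Cox6a1 those of NRF1 and GABP, and Atp5g2, whose changes did not pass, those of NRF1. The Cox7a1 window held none of these letters. These matches are descriptions of the sequence and no test was made of them.

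The genes for the factors themselves belong to a list of regulators of mitochondrial gene expression, whose counts lay near those of all genes. Of 21 measured, 6 were lower (28.6%) and 4 higher (19%) in pChePS_GC, against 23.4% and 18.7% of all genes. In pCP_GC 4 were lower (19%) and 5 higher (23.8%), against 31.8% and 20% of all genes. Esrrg, an estrogen-related receptor that is also one of the parietal markers used above, read 6.96, 7.18, 7.21 and 7.38 in pChePS_GC and 7.09, 7.75 and 6.997 in pCP_GC, against 11.98, 12.13, 11.95 and 11.77 in NGE. It fell by 4.78 (SE 0.16, adjusted p = 2.19e-08) and fell by 4.68 (SE 0.18, adjusted p = 7.81e-08). The following regulators were picked because their motifs or partners were searched. Esrrb fell by 1.31 and 1.55 (adjusted p = 5.75e-06 and 5.11e-06), Esrra by 0.54 and 1.04 (0.00328 and 0.000105), and the coactivator Ppargc1b by 1.39 and 1.31 (0.000254 and 0.000614). Its relative Ppargc1a, a main inducer of mitochondrial genes, was scattered: 6.87, 7.66, 10.85 and 9.94 in pChePS_GC and 8.52, 9.84 and 9.31 in pCP_GC, against 9.80, 10.35, 9.68 and 9.73 in NGE. The highest and the lowest of all these arrays were both pChePS_GC, and the changes of -1.06 and -0.67 did not pass (adjusted p = 0.258 and 0.499). Without pChePS_GC replicate 3 the first passed (0.0466).

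**Figure D4:**
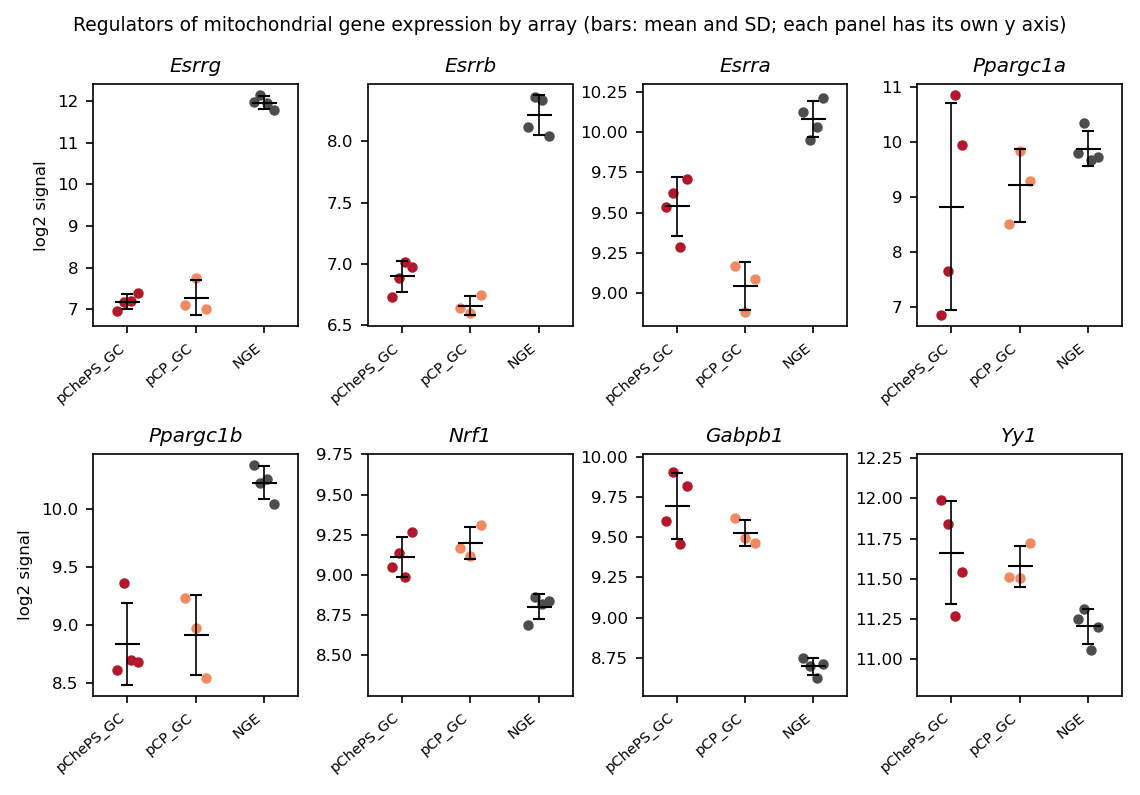
Log2 signal of 8 regulators in each array, with mean and SD per group; each panel has its own y axis. The 3 estrogen-related receptors and Ppargc1b are lower in every tumour array than in NGE, Gabpb1 is higher in every tumour array, and Ppargc1a ranges from 6.87 to 10.85 within pChePS_GC.

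Gabpb1, the partner through which GABP activates transcription, rose by 1.00 in pChePS_GC (SE 0.10, adjusted p = 4.31e-05) and by 0.83 in pCP_GC (SE 0.11, adjusted p = 0.000274), while Gabpa, which binds the DNA, had changes of -0.10 and 0.15 and did not pass (0.47 and 0.331). Nrf1 rose by 0.31 (adjusted p = 0.0178) and 0.40 (adjusted p = 0.00561), but both calls were lost when arrays were centred on their medians or quantile normalized (highest adjusted p over the alternatives 0.277 and 0.168), and the first also without NGE replicate 1. Yy1 rose by 0.46 in pChePS_GC (adjusted p = 0.028), a call that centring and 5 of the left-out arrays ended (highest adjusted p 0.149), and had a change of 0.37 in pCP_GC (adjusted p = 0.0658).

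Between the tumour groups no subunit passed. Of the 79 subunits 0 differed between pChePS_GC and pCP_GC at a limma adjusted p under 0.05, where 0.366% of all genes did, and 13 did at an unadjusted p under 0.05, where 16.5% of all genes did. The groups did not overlap for 4 subunits that were lower in pChePS_GC, where 4.4% of all genes did so, and for 7 that were higher, where 9.5% did. The median difference was 0.04 over the subunits and 0.04 over all genes, and the median width to either side of the subunits' 95% intervals was 0.28. Ndufc1 came nearest: it read 10.19, 10.25, 10.37 and 10.83 in pChePS_GC, against 11.08, 10.96 and 11.11 in pCP_GC. The groups did not overlap, and the difference was -0.64 (95% interval -0.95 to -0.33, adjusted p = 0.0912). Weighting the arrays let it pass (0.038), as did leaving out pChePS_GC replicate 4 (0.0149). Uqcrb, the subunit at the ubiquinone site of complex III, had a difference of -0.36 (interval -0.54 to -0.18, adjusted p = 0.0998) and passed with array weights (0.0476). In the other direction, Ndufb8, a membrane-arm subunit often used as a marker of assembled complex I, read 10.88, 11.03, 10.74 and 11.20 in pChePS_GC, against 10.58, 10.36 and 10.47 in pCP_GC. That difference was 0.49 (interval 0.25 to 0.74, adjusted p = 0.0999), and the one of Ndufa4l2 was 0.51 (interval 0.20 to 0.82, adjusted p = 0.147). Cox7a1 had a difference of -0.31 (adjusted p = 0.31) and Cox6a1 one of 0.36 (adjusted p = 0.18).

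**Figure D5:**
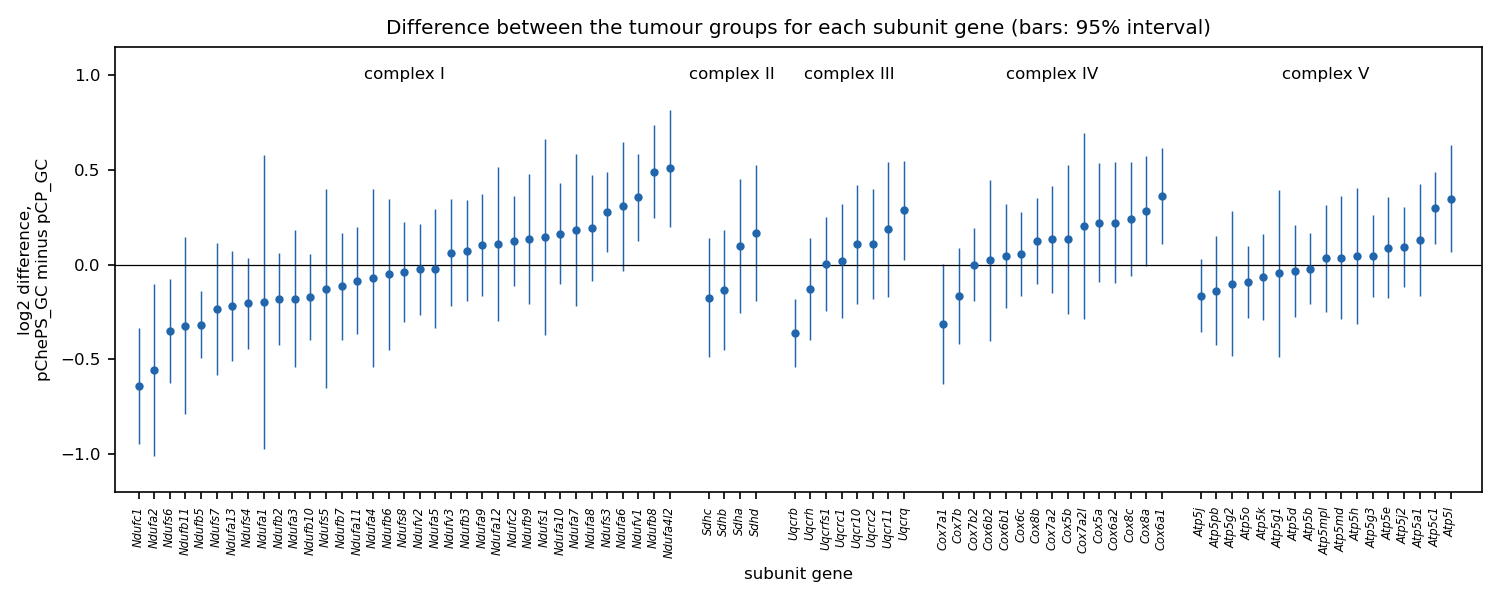
Difference of each subunit gene between the tumour groups (log2, pChePS_GC minus pCP_GC) with 95% intervals, by complex. The differences run from -0.64 (Ndufc1) to 0.51 (Ndufa4l2), and none passed at an adjusted p under 0.05.

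Of 13 complex I assembly factors 5 were lower in pChePS_GC (38.5%, against 23.4% of all genes) and 2 in pCP_GC (15.4%, against 31.8%), and 0 were higher. Timmdc1, which helps to put the membrane arm together, fell by 0.61 in pChePS_GC (adjusted p = 0.00727), against a pCP_GC change of -0.13 (adjusted p = 0.495). Ndufaf1 had a change of -0.46 in pChePS_GC (adjusted p = 0.121) and fell by 0.66 in pCP_GC (adjusted p = 0.0428), a call ended by any of 7 left-out arrays (highest adjusted p 0.134). Of 28 factors for complexes II to V 11 were lower (39.3%) and 2 higher (7.14%) in each tumour group. Of all genes 23.4% were lower and 18.7% higher in pChePS_GC, and 31.8% and 20% in pCP_GC. Cox17, the copper chaperone that serves complex IV, read 8.01, 7.85, 7.92 and 8.05 in pChePS_GC and 8.30, 8.05 and 8.34 in pCP_GC, against 9.20, 9.45, 8.94 and 9.20 in NGE, without overlap. It fell by 1.24 (adjusted p = 2.23e-05) and 0.97 (adjusted p = 0.000217). Sdhaf1, which helps to insert the iron-sulphur clusters of Sdhb, was higher in pChePS_GC. It read 9.30, 9.67, 10.54 and 10.38 in pChePS_GC and 9.39, 9.55 and 9.51 in pCP_GC, against 8.86, 9.06, 8.76 and 8.88 in NGE, and rose by 1.08 in pChePS_GC (adjusted p = 0.00456), with a change of 0.59 in pCP_GC (adjusted p = 0.0684). Cox18, which inserts part of a mitochondrially encoded subunit into the membrane, rose by 0.75 in pChePS_GC (adjusted p = 0.0077) and by 0.63 in pCP_GC (adjusted p = 0.0191), the pCP_GC call lost under both scalings and without NGE replicate 4 or pCP_GC replicate 2 or 3 (highest adjusted p 0.0782).

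Of the subunits encoded by mitochondrial DNA 2 were measured. ND3 of complex I read 13.08, 12.61, 12.71 and 12.91 in pChePS_GC and 13.08, 12.69 and 13.08 in pCP_GC, against 13.28, 13.58, 13.64 and 13.49 in NGE. It fell by 0.67 (adjusted p = 0.00282) and 0.55 (adjusted p = 0.00896). COX2, the subunit of complex IV that receives electrons from cytochrome c, fell by 0.34 in pChePS_GC (adjusted p = 0.0192), a call lost without pChePS_GC replicate 2 or NGE replicate 3 (highest adjusted p 0.0569), against a pCP_GC change of -0.18 (adjusted p = 0.186). Of 7 nuclear subunits and cytochromes outside the symbol patterns 6 were lower in pChePS_GC (85.7%, against 23.4% of all genes) and 5 in pCP_GC (71.4%, against 31.8%). Ndufab1, the acyl carrier protein of complex I, fell by 0.82 in both (adjusted p = 0.00743 and 0.00789).

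Of 11 coenzyme Q synthesis genes 7 were lower in pChePS_GC (63.6%, against 23.4% of all genes) and 4 in pCP_GC (36.4%, against 31.8%). Coq8a, an atypical kinase needed to make coenzyme Q, read 8.32, 9.26, 8.92 and 9.44 in pChePS_GC and 8.76, 8.97 and 8.57 in pCP_GC, against 10.40, 10.47, 10.42 and 10.33 in NGE, and fell by 1.42 (adjusted p = 0.000392) and 1.64 (adjusted p = 0.000279). Of 18 genes of the outer membrane, carriers and fusion 7 were lower (38.9%) and 2 higher (11.1%) in pChePS_GC, against 23.4% and 18.7% of all genes. In pCP_GC 5 were lower (27.8%) and 2 higher (11.1%), both shares below those of all genes. Tomm20, a receptor of the protein import pore, rose by 0.78 (adjusted p = 0.00147) and 0.65 (adjusted p = 0.00477). Mfn2, a fusion protein, fell by 0.76 in pChePS_GC (adjusted p = 0.00164), and Slc25a20, the acylcarnitine carrier, fell by 0.87 in pCP_GC (adjusted p = 0.00162). Of 8 uncoupling and antioxidant genes 3 were lower in each (37.5%), against 23.4% of all genes in pChePS_GC and 31.8% in pCP_GC. Among them was Sod2, the superoxide dismutase of the matrix, which fell by 0.69 (adjusted p = 0.00162) and 0.63 (adjusted p = 0.00336).

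Outside these lists, the 5 genes whose levels followed the scaled mean of the subunits most closely over the 11 arrays were Bnip5, Gga2, Fmc1, Casz1 and Magix. The measure was Pearson's r over all arrays (0.980 to 0.989), and since tumours and NGE lie apart it is given only to rank the genes. With each group centred on its own mean, r was 0.72 to 0.86. The 5 genes were picked on these same arrays, so these values are not independent of the choice. Fmc1, a factor for the assembly of complex V, read 8.88, 9.20, 9.06 and 9.18 in pChePS_GC and 9.17, 8.94 and 9.15 in pCP_GC, against 9.74, 9.92, 9.66 and 9.81 in NGE. Gga2, an adaptor of the trans-Golgi network, changed by -1.90 in pChePS_GC and -1.81 in pCP_GC.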

How the data were processed

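Total RNA of 11 samples was measured with 1 Affymetrix array each. The deposited log2 signals, 1 value per probe set and array, were made by the authors with Affymetrix Expression Console, per the submitters' processing notes. For the program's version, algorithm and background step, the sources used here give nothing, and that the scale is log2 was inferred from the values. Of 35556 probe sets 21789 had 1 gene symbol in the platform annotation, 1621 several and 12146 none. Each of the 19938 genes was represented by its probe set with the highest mean over all arrays, with no filter on dim genes.

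All 3 groups were fitted together with limma (lmFit and eBayes), with Benjamini-Hochberg adjustment over all genes and a threshold of 0.05, after a test on simulated data. Every adjusted p in the text comes from limma. The number of arrays limits the precision. Members and lists were chosen with earlier results of these data known. The named genes are, by rule, those with the largest changes of each complex or list; other genes named were chosen after their values were seen, as were the role groups. Promoters came from RefSeq (GRCm38.p6). The alternatives covered scaling, probe set choice, dim genes, a block by replicate number, weights per array and each array left out. They also covered the eBayes settings, a fit of only the 2 groups compared and a threshold of 0.01 for the adjusted p.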

Additional observations from a re-analysis of the deposited data

Results flagged for a closer look

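Of 168 tests of the subunits and of the complex medians in groups of 4 arrays, 8 marked an array that stood apart from its group. Chance marks about 1 in 20. In pChePS_GC, Cox7a1 read 7.30 in replicate 1, against 7.73 to 7.81 in the other arrays of the group. Cox6b2 read 8.13 in replicate 3, Ndufa8 10.98 in replicate 1, Ndufs3 12.07 in replicate 2 and Ndufs5 8.89 in replicate 4. In NGE, Atp5e read 10.76 and Ndufa5 10.06 in replicate 2, and Ndufv3 read 10.16 in replicate 3. No explanation of these values was tested.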

How the results depend on the processing

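The subunits that passed against NGE numbered 45 to 70 in pChePS_GC and 48 to 72 in pCP_GC over 22 alternatives. All of them were lower except Ndufa2, which passed as higher in pCP_GC with array weights. The lowest counts, 45 and 48, came from a stricter threshold, an adjusted p under 0.01, and not from other processing. With each array left out in turn, the subunits that passed numbered 56 to 62 and 52 to 63, the fewest in pCP_GC without its replicate 2. The fit with a replicate block gave 59, 58 and, between the tumour groups, 0. The deviations of same-numbered samples from their group means had correlations of -0.155 to 0.156. Differently numbered samples were not compared, so whether same-numbered samples share more than a number cannot be told. Centring each array on its median moved the medians in pChePS_GC to -0.73 (complex I), -0.83 (III), -0.58 (IV) and -0.65 (V), and in pCP_GC to -0.80 (I), -0.87 (II), -0.91 (III), -0.72 (IV) and -0.80 (V). Quantile normalization gave -0.59 for complex V in pChePS_GC, and -0.66 (I) and -0.69 (V) in pCP_GC. Without the dimmest 50% of genes complex IV was at -0.56 in pChePS_GC and -0.66 in pCP_GC. With arrays left out, complex IV ran from -0.46 to -0.32 in pChePS_GC. Between pChePS_GC and pCP_GC, 2 subunits passed with array weights and 0 to 1 with arrays left out, and the complex V median ran from -0.068 to 0.070. The causes were not tested. Of the 596 results on named genes, under any alternative 0 called values changed sign, and 347 calls were lost and 202 gained, counted per alternative. The lost calls included those that ended only at the threshold of 0.01. With 3 or 4 arrays a group, and dim probe sets such as that of Cox7b2, small changes are not resolved.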
